A study of Mus musculus with 10 samples.

Results

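The 10 transcripts described here encode enzymes that make serine, glycine, alanine and asparagine, carry one-carbon units through mitochondria, or process cysteine and branched-chain amino acids. They are *Phgdh*, *Psat1*, *Shmt2*, *Mthfd2*, *Aldh1l2*, *Cth*, *Asns*, *Gpt2*, *Pck2* and *Bcat1*, taken by symbol from the 43346 rows of the deposited count table. They were selected on their fold changes in knockout against wildtype, measured in these same libraries, and on their place in the pathways. Each knockout against wildtype is therefore given for them as a description, and calls are only counted beside the share of all genes. The direct contrast of both knockouts was not used in the choice but rests on the same clones, so its tests are not independent of the choice.

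RNA-seq was performed on O9-1 cells, a tetraploid mouse cranial neural crest line, as 4 wildtype samples and as 3 *Kat5* ko and 3 *Ep400* ko clones generated by CRISPR/Cas9. Kat5 is the histone acetyltransferase and Ep400 the chromatin remodeling ATPase of the Tip60/Ep400 complex. Each clone grew from a single sorted cell, so that clonal differences and the knockout cannot be told apart within a clone. The *Kat5* ko clones carry frameshifts in every allele. *Ep400* ko clone 1 does too, clone 3 keeps a single allele with an in-frame deletion, and clone 2 has an in-frame deletion in every allele but a single frameshifted copy. Both knockouts are compared with the same wildtype libraries, and all cells grew in a medium with serum and added nonessential amino acids.

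Serine is built from a glycolytic intermediate by phosphoglycerate dehydrogenase, phosphoserine aminotransferase and phosphoserine phosphatase. Serine hydroxymethyltransferase then passes a carbon from serine to tetrahydrofolate, and the mitochondrial arm of this folate cycle delivers formate for nucleotide synthesis. Many genes of these routes, together with asparagine synthetase and aminoacyl-tRNA synthetases, are known targets of the transcription factor Atf4, which is translated when amino acids run short and binds C/EBP-ATF response elements.

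Between 30968945 and 48301792 counts fell on genes per library. *Kat5* was at 48.8 to 57.5 CPM (counts scaled to the library total) in wildtype and at 16.4 to 23.2 CPM in the *Kat5* ko clones, and *Ep400* at 157 to 165 CPM in wildtype and 54.7 to 61.4 CPM in the *Ep400* ko clones, so the targeted genes matched the labels in all 10 libraries. Of 15 neural crest markers, 12 to 14 reached 1 CPM in each group, with summed levels of 1560 to 1780 CPM in wildtype, 1570 to 1920 CPM in *Kat5* ko and 1910 to 3160 CPM in *Ep400* ko. *Sox10*, a defining marker of migrating neural crest, was at 0 in every library. *Kat5* ko clone 1 stood apart: its 6 smooth muscle markers summed to 758 CPM against 19.0 to 95.8 CPM in the other 9 libraries. Summed markers of epithelium, endothelium and blood were at 8.0 to 11.7 CPM in wildtype and 3.07 to 8.84 CPM in the 6 clones, and those of neurons and glia at 1.32 to 3.44 CPM except in the *Ep400* ko clones with 5.04 to 8.85 CPM. Bone and cartilage markers spanned 64.3 to 130.0 CPM with no separation of the groups. In bulk RNA, fewer expressing cells and less RNA per cell cannot be told apart.

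The promoters of the genes on which the results turn are shown first, as 300 bases from 250 before to 50 after the RefSeq start site, 5′ to 3′ on the strand of the gene (GRCm38.p6). Capitals mark matches, on either strand, to the C/EBP-ATF response element TGATGNAAN and to the CCAAT box CCAAT. *Asns* and *Pck2* are shown because they hold the former, *Phgdh* and *Mthfd2* as enzymes of serine synthesis and of the folate cycle, and *Bcat1* as the enzyme with the largest difference between both knockouts. The windows lie at chr6:7693160-7693459 (minus strand) for *Asns*, chr14:55540016-55540315 (plus) for *Pck2*, chr3:98339920-98340219 (minus) for *Phgdh*, chr6:83317555-83317854 (minus) for *Mthfd2* and chr6:145076108-145076407 (minus) for *Bcat1*.
Asns: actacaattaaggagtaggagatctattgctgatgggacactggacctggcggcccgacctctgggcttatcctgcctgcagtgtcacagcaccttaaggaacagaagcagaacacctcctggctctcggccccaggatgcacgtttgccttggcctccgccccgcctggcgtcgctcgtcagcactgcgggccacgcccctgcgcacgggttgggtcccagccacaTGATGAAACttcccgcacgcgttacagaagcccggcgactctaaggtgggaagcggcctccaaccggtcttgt
Pck2: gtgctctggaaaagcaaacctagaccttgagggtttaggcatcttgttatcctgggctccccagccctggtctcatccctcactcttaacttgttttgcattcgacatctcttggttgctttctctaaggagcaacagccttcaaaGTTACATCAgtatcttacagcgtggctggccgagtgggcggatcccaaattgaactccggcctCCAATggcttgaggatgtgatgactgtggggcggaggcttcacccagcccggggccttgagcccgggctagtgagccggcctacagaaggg
Phgdh: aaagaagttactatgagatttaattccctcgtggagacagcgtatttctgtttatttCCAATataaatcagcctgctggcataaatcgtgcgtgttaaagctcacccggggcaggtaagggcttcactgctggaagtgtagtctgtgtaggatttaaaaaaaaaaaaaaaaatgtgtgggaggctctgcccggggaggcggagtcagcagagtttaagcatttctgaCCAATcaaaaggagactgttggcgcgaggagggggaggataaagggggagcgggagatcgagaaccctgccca
Mthfd2: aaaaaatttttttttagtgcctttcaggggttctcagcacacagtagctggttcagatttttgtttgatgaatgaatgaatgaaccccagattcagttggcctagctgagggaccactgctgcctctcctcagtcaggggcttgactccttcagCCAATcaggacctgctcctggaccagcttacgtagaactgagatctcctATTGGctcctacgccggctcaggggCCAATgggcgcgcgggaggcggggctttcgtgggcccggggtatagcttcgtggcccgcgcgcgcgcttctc
Bcat1: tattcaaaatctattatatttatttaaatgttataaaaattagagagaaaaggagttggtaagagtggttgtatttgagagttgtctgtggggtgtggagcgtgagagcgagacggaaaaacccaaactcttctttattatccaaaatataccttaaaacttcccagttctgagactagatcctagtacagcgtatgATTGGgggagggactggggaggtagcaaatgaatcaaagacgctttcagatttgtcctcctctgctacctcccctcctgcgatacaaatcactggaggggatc

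RefSeq windows were matched for 8 of the 10 genes, 10 windows in all, and *Cth* and *Aldh1l2* are named only. *Bcat1* has a further window at chr6:145048763-145049062 (minus strand), which is not printed and held none of the motifs sought. The response element stood 23 bases before the start of *Asns* as TGATGAAAC and 104 bases before that of *Pck2*, on the opposite strand, as GTTACATCA. It was found in 2 of the 10 windows and in 3.95% of all 32851 windows. The CCAAT box was held by 5 of 10 windows (*Bcat1*, *Mthfd2*, *Pck2*, *Phgdh*, *Psat1*), against 37.4% of all windows. The windows of *Mthfd2* and *Psat1* among these had 3 copies each. The GC box GGGCGG was in 4 of 10 windows (35.7% of all) and the E-box CACGTG in 0 of 10 (7.15% of all). No marked match overlapped another, and a match is a run of letters, not a measured binding site.

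In wildtype cells, the serine enzymes stood at the top. Per length, *Phgdh* (183 ± 11.8 RPKM, CPM per kilobase of exon, SD, n = 4), *Psat1* (169 ± 23.5) and *Shmt2* (138 ± 30.5) overlapped in their ranges. *Asns* (87.7 ± 13.7 RPKM) and *Mthfd2* (61.1 ± 9.68 RPKM) came next, with ranges that overlapped each other but not that of *Shmt2*. After a gap, *Pck2* (23.8 ± 5.19 RPKM), *Gpt2* (20.0 ± 5.96), *Aldh1l2* (12.6 ± 4.40) and *Bcat1* (12.3 ± 1.07) each overlapped the next in order. *Cth* was the lowest, at 3.51 ± 1.02 RPKM, and its range lay below that of *Bcat1*. The genes lie on chromosomes 6 (*Asns*, *Mthfd2*, *Bcat1*), 3 (*Cth*, *Phgdh*), 10 (*Shmt2*, *Aldh1l2*), 8 (*Gpt2*), 14 (*Pck2*) and 19 (*Psat1*). All but *Asns*, *Gpt2* and *Phgdh* overlap another annotated gene, such as *Ndufa4l2* opposite *Shmt2* and *D10Wsu102e* opposite *Aldh1l2*. Whether counting used the strand is not given in the sources used here, so reads of such pairs cannot be told apart.

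The 10 enzymes fell into 2 sets by their behaviour in the *Kat5* ko clones. *Asns*, *Gpt2*, *Pck2*, *Cth* and *Aldh1l2* were below the wildtype range in all 6 knockout clones. *Phgdh*, *Psat1*, *Shmt2*, *Mthfd2* and *Bcat1* were below it in *Kat5* ko clone 1 and, except for *Psat1* in clone 1, in the *Ep400* ko clones. In *Kat5* ko clones 2 and 3 they were within or above the wildtype range, with the exception of *Mthfd2* in clone 3. The plot of levels by library shows both sets.

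**Figure D1:**
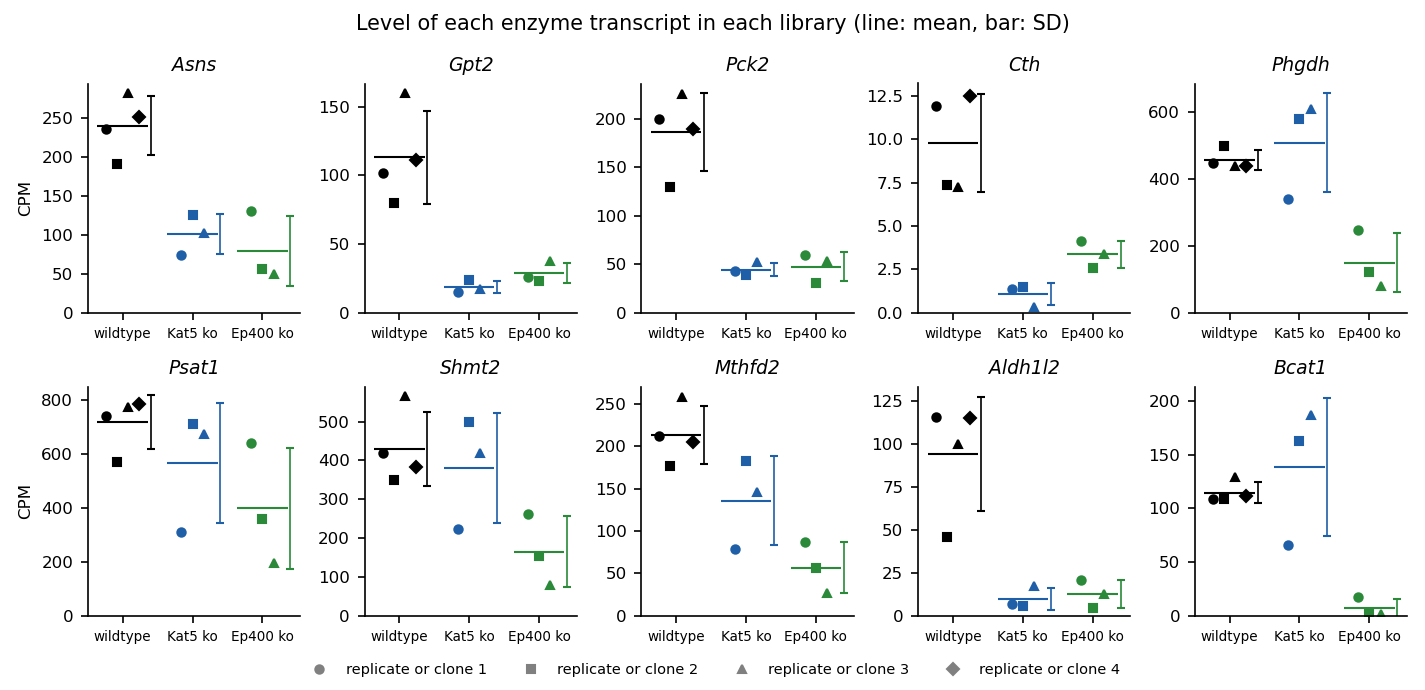
Level in CPM (vertical axis, from 0) of each of the 10 enzyme transcripts in the 4 wildtype libraries (black), 3 Kat5 ko clones (blue) and 3 Ep400 ko clones (green). The symbol shape gives the replicate or clone number, the line the group mean and the bar its SD. Asns, Gpt2, Pck2, Cth and Aldh1l2 are low in both knockouts, whereas Bcat1 is at 65.5 to 187 CPM in Kat5 ko and at 1.64 to 17.5 CPM in Ep400 ko.

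*Asns* encodes the synthetase that makes asparagine from aspartate with nitrogen from glutamine. It was at 236, 191, 282 and 251 CPM in wildtype, at 74.0, 126 and 102 CPM in *Kat5* ko clones 1 to 3 and at 131, 56.6 and 49.99 CPM in *Ep400* ko clones 1 to 3. Every clone lay below every wildtype library. The fitted log2-fold change, with its SE, was -1.29 ± 0.21 in *Kat5* ko and -1.60 ± 0.34 in *Ep400* ko. The promoter of *Asns* printed above is the one with TGATGAAAC.

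*Gpt2* encodes the mitochondrial alanine aminotransferase. Wildtype libraries held 102, 79.9, 160 and 111 CPM, *Kat5* ko clones 14.8, 23.6 and 17.5 CPM and *Ep400* ko clones 26.3, 23.1 and 37.4 CPM. The groups did not overlap with wildtype, and the means were 16.5% and 25.6% of the wildtype mean. Log2-fold changes were -2.64 ± 0.277 and -1.97 ± 0.272.

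*Pck2*, the mitochondrial phosphoenolpyruvate carboxykinase, makes phosphoenolpyruvate from oxaloacetate, from which 3-carbon precursors of serine can be drawn. Its level was 200.2, 130, 225 and 190 CPM in wildtype, 42.9, 38.4 and 51.9 CPM in *Kat5* ko and 59.3, 30.5 and 52.9 CPM in *Ep400* ko. The clones of both knockouts overlapped each other and lay below wildtype throughout. Log2-fold changes were -2.10 ± 0.217 and -1.97 ± 0.276, and the spread among *Kat5* ko clones, 0.434 on the log2 scale, was the smallest of the 10 enzymes in that group.

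*Cth* encodes cystathionine gamma-lyase, which releases cysteine in the last step of transsulfuration. It was at 11.9, 7.40, 7.28 and 12.5 CPM in wildtype, at 1.38, 1.48 and 0.353 CPM in *Kat5* ko and at 4.15, 2.59 and 3.41 CPM in *Ep400* ko. Here the 3 groups were separate, with *Kat5* ko lowest. The counts behind these values were 256 to 567 in wildtype, 16 to 50 in *Kat5* ko and 83 to 177 in *Ep400* ko. Log2-fold changes were -3.23 ± 0.535 and -1.53 ± 0.32.

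*Aldh1l2*, the mitochondrial formyltetrahydrofolate dehydrogenase, oxidises the one-carbon unit to carbon dioxide and yields NADPH. It was at 116, 45.9, 100.2 and 115 CPM in wildtype, at 6.75, 5.83 and 17.4 CPM in *Kat5* ko and at 20.6, 4.43 and 13.0 CPM in *Ep400* ko. Wildtype replicate 2 was low among its group but above every clone. The log2-fold changes were -3.27 ± 0.494 in *Kat5* ko, the lowest of the 10, and -2.89 ± 0.532 in *Ep400* ko.

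*Phgdh* encodes phosphoglycerate dehydrogenase, the entry enzyme of serine synthesis. Wildtype libraries held 446.5, 498, 436 and 438 CPM. *Kat5* ko clone 1 was below them with 338 CPM, whereas clones 2 and 3 were above them with 576 and 606.5 CPM. All *Ep400* ko clones were below, at 248, 120.1 and 79.5 CPM. Log2-fold changes were 0.12 ± 0.199 and -1.61 ± 0.348.

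*Psat1*, the phosphoserine aminotransferase of the next step, was at 743, 571, 775 and 786 CPM in wildtype, 311, 713 and 677 CPM in *Kat5* ko and 642.5, 359 and 198 CPM in *Ep400* ko. Only *Kat5* ko clone 1 and *Ep400* ko clones 2 and 3 left the wildtype range. Log2-fold changes were -0.38 ± 0.276 and -0.85 ± 0.352, the latter being the smallest decrease of the 10 enzymes in *Ep400* ko.

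*Shmt2* encodes the mitochondrial serine hydroxymethyltransferase, which splits serine into glycine and a one-carbon unit. It was at 419.5, 350.0, 565 and 382 CPM in wildtype, at 224, 499 and 420.1 CPM in *Kat5* ko and at 261, 155 and 79.8 CPM in *Ep400* ko. *Kat5* ko clones 2 and 3 lay inside the wildtype range and all *Ep400* ko clones below it. Log2-fold changes were -0.21 ± 0.277 and -1.38 ± 0.371.

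*Mthfd2*, the mitochondrial methylenetetrahydrofolate dehydrogenase and cyclohydrolase that acts next on the one-carbon unit, was at 211, 177, 258 and 205 CPM in wildtype. In *Kat5* ko it was at 78.6, 182 and 146 CPM, clone 2 being within the wildtype range. In *Ep400* ko it was at 86.5, 56.9 and 27.1 CPM and below wildtype in every clone. Log2-fold changes were -0.69 ± 0.269 and -1.91 ± 0.355.

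*Bcat1* encodes the cytosolic aminotransferase of leucine, isoleucine and valine. Wildtype libraries held 108, 109, 129 and 112 CPM. *Kat5* ko clones held 65.5, 163 and 187 CPM, 1 clone below and 2 above wildtype, and *Ep400* ko clones held 17.5, 2.19 and 1.64 CPM, far below both. The *Ep400* ko values rest on 746, 70 and 66 counts. Log2-fold changes were 0.24 ± 0.304 and -4.00 ± 0.806.

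Counted over the 10 enzymes, 5 passed an adjusted p of 0.05 as lower in *Kat5* ko (edgeR quasi-likelihood test, Benjamini-Hochberg adjusted), beside 0.372% of all 13434 genes tested, and 9 did in *Ep400* ko, beside 5.76% of 13836. The same numbers, 5 and 9, had no overlap with wildtype, beside 10.2% and 14.1% of all genes. As the enzymes were chosen with these contrasts known, nothing is read from these counts. Their median log2-fold change was -0.99 in *Kat5* ko and -1.76 in *Ep400* ko, beside 3.24e-05 and 0.04 over all genes. The *Kat5* ko calls depended on single libraries, as did the 67 calls over all genes. Without wildtype replicate 1, wildtype replicate 4 or *Kat5* ko clone 3, 0 enzymes remained, beside 1, 2 and 4 genes in all. Without wildtype replicate 3 or *Kat5* ko clone 2 there were 2 enzymes (33 and 36 genes). Leaving out wildtype replicate 2 kept 3 enzymes (58 genes). The *Ep400* ko count was 5 without wildtype replicate 4 and 6 without wildtype replicate 1 or *Ep400* ko clone 2. Over all genes, the 1917 calls became 873, 826 and 1451 in the same fits.

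The sets were drawn by *Kat5* ko clones 2 and 3, so their parting there, and in a fit without clone 1, follows from how they were drawn. In clone 1 they did not part. In clone 1 all 10 enzymes were below the wildtype range, beside 27.9% of all genes, while 5 were below in clone 2 (34.1% of genes) and 6 in clone 3 (32.0%). Clone 1 was the lowest of the *Kat5* ko clones for 7 of 10 enzymes and the highest for none. The median difference of the enzymes from the wildtype mean was -1.55 on the log2 CPM scale in clone 1, -0.57 in clone 2 and -0.87 in clone 3. Without clone 1, the fitted log2-fold change of *Bcat1* in *Kat5* ko was 0.58, that of *Phgdh* 0.35, of *Shmt2* 0.06, of *Psat1* -0.08 and of *Mthfd2* -0.41, whereas *Asns* (-1.11), *Gpt2* (-2.50), *Pck2* (-2.07), *Cth* (-3.47) and *Aldh1l2* (-3.05) stayed low. This is also the clone with 758 CPM of smooth muscle markers, and whether that bears on the result was not tested.

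Among the *Ep400* ko clones, 9, 10 and 10 enzymes were below the wildtype range in clones 1 to 3, beside 29.6%, 31.8% and 34.5% of all genes, and the median differences were -1.23, -1.99 and -2.32. Clone 1 was the highest of the 3 for every enzyme but *Gpt2*. Clone 3 was the lowest for *Asns*, *Phgdh*, *Psat1*, *Shmt2*, *Mthfd2* and *Bcat1*, and clone 2 for the other 4. The median range among clones was wider for the enzymes than for all genes. They were chosen on fold changes in these same clones, so nothing is read from this. The median log2 range within a group was 1.65 for the 10 enzymes and 0.646 for all 13094 genes in *Ep400* ko, 1.18 and 0.655 in *Kat5* ko, and 0.624 and 0.511 in wildtype. The widest range was that of *Bcat1* in *Ep400* ko, at 3.37.

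Summed over the 10 enzymes, wildtype libraries held 2594, 2159, 2938 and 2601 CPM, *Kat5* ko clones 1157, 2328 and 2225 CPM and *Ep400* ko clones 1496, 810.0 and 543 CPM. The means were 2573 ± 319, 1903 ± 649 and 950 ± 492 CPM (SD, n = 4, 3 and 3). The sum is carried by *Psat1*, *Phgdh* and *Shmt2*. *Kat5* ko clones 2 and 3 thus reached the wildtype range of the sum although 5 single enzymes were below wildtype in clone 2 and 6 in clone 3. The enzymes lie on 6 chromosomes, and the median difference of all genes on these chromosomes from wildtype was between -0.32 and 0.28 in each clone. Both ends came from chromosome 19, that of *Psat1*. Its median was -0.0786, -0.183 and -0.32 in *Kat5* ko clones 1 to 3 and 0.276, 0.251 and 0.205 in *Ep400* ko clones 1 to 3. After subtracting this median, *Psat1* in *Ep400* ko clone 1 was at -0.426 in place of -0.15.

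The direct comparison asked whether *Ep400* ko and *Kat5* ko clones differed in these enzymes. *Bcat1* was the only enzyme past the threshold (1 of 10, beside 7.32% of 13587 genes). It was lower in *Ep400* ko by a log2-fold change of -4.29 ± 0.983 (edgeR quasi-likelihood test, adjusted p = 0.0468). The call rested on single clones. Its edgeR adjusted p was 0.0339 without *Kat5* ko clone 1 and 0.0214 without *Ep400* ko clone 1. It was between 0.101 and 0.149 when any of the other 4 clones was left out. Log2-fold changes were -3.82 to -6.20 throughout. In the same fits, the 994 calls over all genes became 2537, 368 and 4 to 81. *Phgdh* was lower in every *Ep400* ko clone than in every *Kat5* ko clone, with a log2-fold change of -1.78 ± 0.448 and an edgeR adjusted p of 0.0537. *Cth* was higher in every *Ep400* ko clone, by 1.64 ± 0.606 (edgeR adjusted p = 0.113). Non-overlap in the lower direction was thus seen for 2 enzymes, beside 18.0% of all genes, and in the higher direction for 1, beside 20.5%.

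*Mthfd2* (-1.27 ± 0.458) and *Shmt2* (-1.22 ± 0.466) did not pass the edgeR test, with adjusted p of 0.107 and 0.122. Nor did *Gpt2* (0.62 ± 0.281, adjusted p = 0.172), *Psat1* (-0.52 ± 0.476, 0.475), *Asns* (-0.36 ± 0.395, 0.548), *Aldh1l2* (0.32 ± 0.632, 0.746) and *Pck2* (0.08 ± 0.282, 0.863). For each of these enzymes, *Mthfd2* and *Shmt2* included, clones of both knockouts overlapped. The SEs of *Psat1*, *Asns*, *Aldh1l2* and *Pck2* leave differences of either sign possible. The median of the 10 was -0.44, against 0.01 for all genes, and ran from -0.996 without *Ep400* ko clone 1 to -0.153 without *Ep400* ko clone 3. The plot of fitted differences gives the 3 comparisons side by side.

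**Figure D2:**
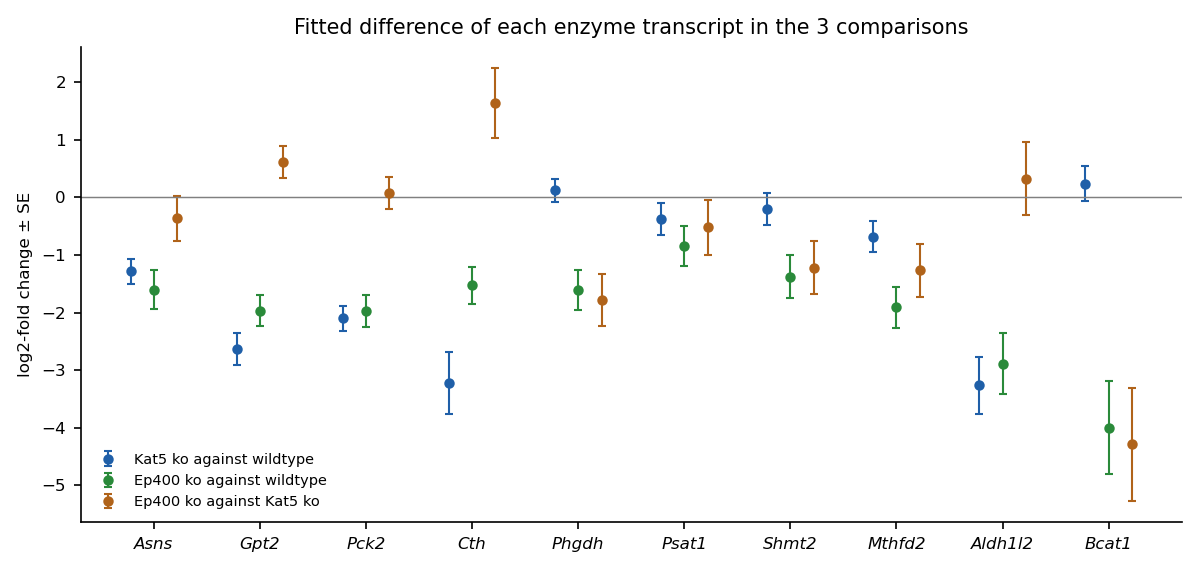
Fitted log2-fold change (points) with its SE (bars) for each of the 10 enzymes in Kat5 ko against wildtype (blue), Ep400 ko against wildtype (green) and Ep400 ko against Kat5 ko (brown). The first 2 comparisons share the wildtype libraries and are shown as a description. Bcat1 lies at 0.24 in Kat5 ko and at -4.00 in Ep400 ko.

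For 6 of the enzymes there is a paralog that catalyses the same reaction, mostly in another compartment. None of the 5 that could be tested passed the threshold in *Kat5* ko by edgeR. An unadjusted edgeR p of at most 0.05 was found for 3 of the 5 (*Aldh1l1*, *Shmt1* and *Bcat2*), beside 22.3% of all genes. The former 2 passed by DESeq2, beside 1382 genes in all. *Gpt*, the cytosolic partner of *Gpt2*, was at 4.31 to 8.19 CPM in wildtype, 4.94 to 6.36 CPM in *Kat5* ko and 3.56 to 5.82 CPM in *Ep400* ko, so the groups overlapped. Per length, *Gpt2* was at 20.0 ± 5.96 RPKM and *Gpt* at 2.04 ± 0.590 RPKM in wildtype, against 3.30 ± 0.797 and 1.88 ± 0.252 RPKM in *Kat5* ko. *Pck1*, the cytosolic carboxykinase of liver and kidney, had 1 count in wildtype replicate 3, 1 in *Kat5* ko clone 3 and 0 in the other 8 libraries.

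*Shmt1*, the cytosolic partner of *Shmt2*, was at 40.3 to 50.1 CPM in wildtype, at 46.7, 108 and 104 CPM in *Kat5* ko and at 38.1, 31.2 and 11.9 CPM in *Ep400* ko. As with *Phgdh* and *Bcat1*, clones 2 and 3 of *Kat5* ko were above wildtype and all *Ep400* ko clones below it. By edgeR, the log2-fold changes of 0.90 ± 0.265 (adjusted p = 0.113), -0.74 ± 0.341 (0.172) and, between the knockouts, -1.68 ± 0.483 (0.0661) did not pass. Without *Kat5* ko clone 1 the edgeR adjusted p was 0.00399 against wildtype and 0.0364 between the knockouts. *Mthfd2l*, a further mitochondrial methylenetetrahydrofolate dehydrogenase, was at 12.9 to 20.1 CPM in wildtype, 18.2 to 21.7 CPM in *Kat5* ko and 11.6 to 16.2 CPM in *Ep400* ko.

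*Aldh1l1*, the cytosolic partner of *Aldh1l2*, was near the limit of detection, with 12 to 35 counts in wildtype, 2, 2 and 5 in the *Kat5* ko clones and 16, 159 and 99 in the *Ep400* ko clones. It was higher in *Ep400* ko than in *Kat5* ko (log2-fold change 4.97 ± 1.02, edgeR adjusted p = 0.0387), a fold that depends on the few *Kat5* ko counts. *Bcat2*, the mitochondrial partner of *Bcat1*, was at 55.0 to 64.5 CPM in wildtype, 44.9 to 51.5 CPM in *Kat5* ko and 27.9 to 35.5 CPM in *Ep400* ko. It fell in *Ep400* ko by 0.88 ± 0.144 on the log2 scale (edgeR adjusted p = 0.00822). Per length, *Bcat1* and *Bcat2* were at 12.3 ± 1.07 and 15.4 ± 1.04 RPKM in wildtype and at 0.762 ± 0.965 and 8.39 ± 1.08 RPKM in *Ep400* ko. *Bcat2* was above *Bcat1* per length in every library except *Kat5* ko clones 2 and 3.

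**Figure D3:**
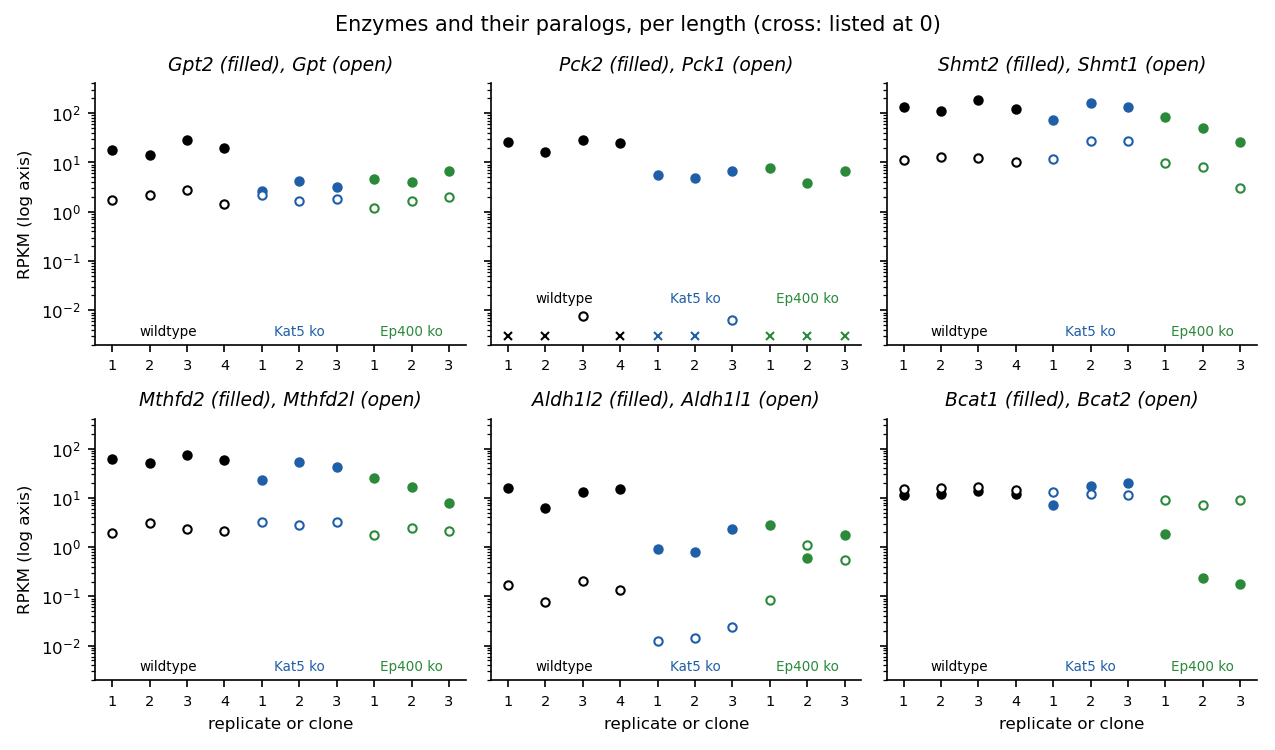
Level per length in RPKM (log axis) of 6 enzymes (filled) and of their paralogs (open) in each library, by replicate or clone number. Black is wildtype, blue Kat5 ko and green Ep400 ko, and a cross marks a value listed at 0. Gpt and Mthfd2l overlap with wildtype in both knockouts, and Bcat1 lies below Bcat2 in wildtype and, by a wider gap, in the Ep400 ko clones.

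Of 89 other enzymes of these pathways, listed with earlier results of these data known, 78 were tested in *Kat5* ko. By edgeR 0 passed, beside 67 genes in all. An unadjusted edgeR p of at most 0.05 was found for 28 (16 lower, 12 higher), beside 22.3% of all genes. By DESeq2 16 passed, beside 1382 genes in all. Without *Kat5* ko clone 1 the edgeR count was 27, beside 2651 genes in all. In *Ep400* ko 12 of 80 passed as lower and 4 as higher, beside 5.76% and 8.09% of all genes. The sum of 16 was 10 without wildtype replicate 1, where 826 genes passed in all in place of 1917. Between the knockouts 4 passed as lower and 4 as higher in *Ep400* ko, beside 2.97% and 4.34% of all genes. These 8 calls became 27 without *Kat5* ko clone 1, 6 without *Ep400* ko clone 1 and 0 when any of the other 4 clones was left out. The 994 calls over all genes became 2537, 368 and 4 to 81 in the same fits. Medians were -0.03, -0.13 and -0.09 on the log2 scale, beside 3.24e-05, 0.04 and 0.01 for all genes.

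Among the other enzymes that fell in *Ep400* ko were *Aldh18a1*, *Pycr1* and *Prodh*, which make or degrade proline. *Aldh18a1*, which starts proline synthesis from glutamate, was at 196, 188, 272 and 198 CPM in wildtype, at 92.2, 138 and 105 CPM in *Kat5* ko and at 74.3, 40.6 and 45.1 CPM in *Ep400* ko. It fell in *Ep400* ko by 2.00 ± 0.251 on the log2 scale (edgeR adjusted p = 0.0037), and its *Kat5* ko value of -0.96 ± 0.194 had an edgeR adjusted p of 0.069. *Pycr1*, a reductase of the last step, fell by 1.66 ± 0.249 in *Ep400* ko (edgeR adjusted p = 0.00633). *Prodh*, which degrades proline, fell by 1.80 ± 0.277 (edgeR adjusted p = 0.00677), from 12.1 to 23.9 CPM in wildtype to 4.59 to 4.83 CPM. In the list of alanine, asparagine, aspartate and glutamate enzymes, 6 of 16 fell and 2 rose in *Ep400* ko, beside 5.76% and 8.09% of all genes.

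Among 11 tested genes of serine and glycine, 2 fell in *Ep400* ko, beside 5.76% of all genes. *Psph*, the phosphatase that completes serine synthesis, went from 41.8 to 49.1 CPM in wildtype to 21.7, 15.4 and 12.6 CPM, a log2-fold change of -1.48 ± 0.203 (edgeR adjusted p = 0.00465). It was at 17.8, 35.4 and 21.9 CPM in *Kat5* ko (-0.92 ± 0.233, edgeR adjusted p = 0.0897), where every clone lay below wildtype. With *Phgdh*, *Psat1* and *Psph*, all enzymes of serine synthesis from the glycolytic intermediate were below wildtype in *Ep400* ko clones 2 and 3 and in *Kat5* ko clone 1. *Srr*, serine racemase, was higher in *Ep400* ko than in *Kat5* ko (1.87 ± 0.373, edgeR adjusted p = 0.0359). Its level was 16.2 to 21.65 CPM in wildtype, 9.28, 6.72 and 7.45 CPM in *Kat5* ko and 20.5, 21.8 and 45.1 CPM in *Ep400* ko. *Gcat*, which cleaves a threonine product to glycine, was lower in *Ep400* ko than in *Kat5* ko (-1.07 ± 0.249, edgeR adjusted p = 0.0472).

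In the folate list, 2 of 16 fell and 1 rose in *Ep400* ko, beside 5.76% and 8.09% of all genes. *Gart*, a purine synthesis enzyme that uses formyl-tetrahydrofolate, fell by 1.49 ± 0.252 (edgeR adjusted p = 0.00933). It was at 158 to 253 CPM in wildtype, at 238, 493 and 429 CPM in *Kat5* ko and at 102, 79.7 and 54.0 CPM in *Ep400* ko, the difference between the knockouts being -2.31 ± 0.354 (edgeR adjusted p = 0.0263). *Fpgs*, which adds glutamates to folates and keeps them in the cell, was also lower in *Ep400* ko than in *Kat5* ko (-1.39 ± 0.228, edgeR adjusted p = 0.0288). *Ggh*, which removes these glutamates, rose in *Ep400* ko from 2.65 to 3.9 CPM to 15.1, 20.8 and 28.2 CPM (2.85 ± 0.281, edgeR adjusted p = 0.00181).

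Of 19 genes of methionine and transsulfuration, 1 fell and 1 rose in *Ep400* ko, beside 5.76% and 8.09% of all genes. Nothing is read from so few calls. *Ahcy*, which clears S-adenosylhomocysteine, fell by 1.28 ± 0.204 (edgeR adjusted p = 0.00761). Between the knockouts, *Csad*, an enzyme of taurine synthesis, was higher in *Ep400* ko (1.84 ± 0.245, edgeR adjusted p = 0.0206) and *Enoph1*, of methionine salvage, lower (-1.57 ± 0.341, 0.0425). *Pcx*, pyruvate carboxylase, which makes the oxaloacetate used by *Pck2*, was higher by 1.62 ± 0.305 (edgeR adjusted p = 0.0331). Of 18 branched-chain genes, *Bcat2* alone passed in *Ep400* ko, as lower, beside 5.76% of all genes. The plot of other genes of the pathways shows these lists.

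**Figure D4:**
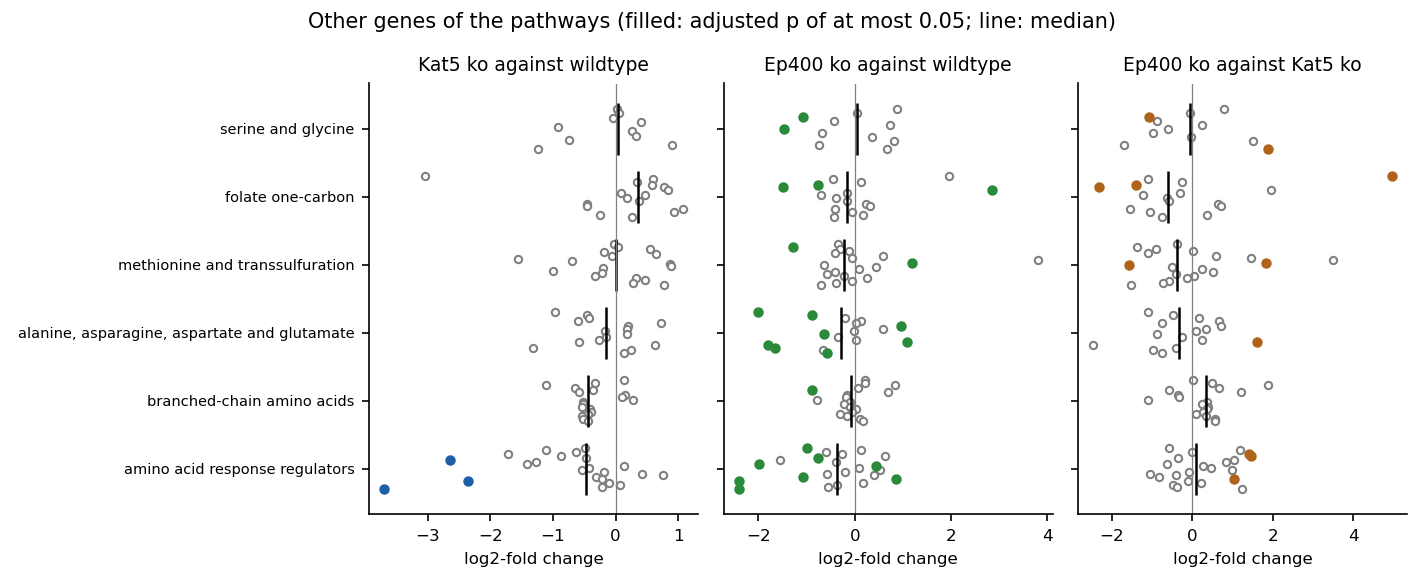
Log2-fold change (horizontal axis) of the other enzymes and of amino acid response regulators, by list, in the 3 comparisons. Each point is a gene, filled where the edgeR adjusted p was at most 0.05, and the vertical line is the median of the list. In Kat5 ko the filled points are 3 regulators and no enzyme, and in Ep400 ko 12 enzymes are filled below 0 and 4 above.

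Among 22 regulators and reporters of the amino acid response, *Atf4* itself was at 444 to 630.3 CPM in wildtype, 252.5, 393 and 363 CPM in *Kat5* ko and 352, 466 and 193 CPM in *Ep400* ko. Its log2-fold changes of -0.63 ± 0.196 in *Kat5* ko and -0.60 ± 0.285 in *Ep400* ko did not pass the edgeR test (adjusted p = 0.124 and 0.187), and the transcript level does not measure the protein. In *Kat5* ko, 3 of 22 fell by edgeR, beside 0.372% of all genes: *Trib3*, a pseudokinase induced by Atf4 (-3.70 ± 0.498, adjusted p = 0.0282), *Chac1*, a glutathione-degrading enzyme (-2.65 ± 0.411, 0.0444), and *Nupr1*, a stress-induced chromatin protein (-2.35 ± 0.329, 0.0334). These 3 calls were lost without wildtype replicate 1 (edgeR adjusted p of 0.109 to 0.135) or wildtype replicate 4 (0.103 to 0.116). They were also lost without *Kat5* ko clone 2 (edgeR adjusted p of 0.0623 to 0.0841) or *Kat5* ko clone 3 (0.0934 to 0.14). The *Trib3* call was lost without wildtype replicate 3 as well (edgeR adjusted p = 0.0576). The 67 calls over all genes became 1, 2, 36, 4 and 33 in these fits, in the order named.

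In *Ep400* ko, 6 of 22 regulators fell and 2 rose, beside 5.76% and 8.09% of all genes. *Trib3* (-2.40 ± 0.48, edgeR adjusted p = 0.0158), *Nupr1* (-2.42 ± 0.463, 0.014) and *Ddit4*, an inhibitor of mTORC1 signaling (-1.99 ± 0.385, 0.0144), fell, as did the tRNA synthetase genes *Nars* (-1.08 ± 0.197, 0.0118) and *Aars* (-0.996 ± 0.28, 0.0484) and *Cebpg* (-0.77 ± 0.13, 0.00942). *Nfe2l2*, the regulator of the oxidative stress response, rose (0.87 ± 0.157, edgeR adjusted p = 0.0116), and so did *Eif2ak1* (0.45 ± 0.115, 0.036). The call of *Aars* was lost when any library was left out (edgeR adjusted p of 0.0516 to 0.11), and that of *Eif2ak1* for every library but wildtype replicate 3 (0.059 to 0.119). Between the knockouts, 3 of 22 passed as higher in *Ep400* ko and 0 as lower, beside 4.34% and 2.97% of all genes. They were *Atf5* (1.41 ± 0.309, edgeR adjusted p = 0.0434), *Cebpb* (1.46 ± 0.245, 0.0295) and *Nfe2l2* (1.03 ± 0.221, 0.0414). All 3 calls were lost when clone 2 or 3 of either knockout was left out (edgeR adjusted p of 0.0782 to 0.15). Those of *Atf5* and *Nfe2l2* were also lost without *Ep400* ko clone 1 (edgeR adjusted p of 0.0701 and 0.0716). The 994 calls over all genes became 4 to 81 in the former fits and 368 in the latter. *Atf5* was at 62.2 to 126 CPM in wildtype, 23.9 to 38.4 CPM in *Kat5* ko and 62.1 to 106 CPM in *Ep400* ko. The regulators' median was -0.47 in *Kat5* ko and -0.37 in *Ep400* ko, beside 3.24e-05 and 0.04 for all genes.

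Outside the 10 enzymes, the genes most like their median over all 10 libraries were sought among 13084 genes, by the root mean square of the difference in log2 CPM relative to wildtype. *Aldh18a1* was the nearest at 0.212 and *Psph* the next at 0.240, against a median of 1.29 over all genes. Of the enzymes themselves, *Asns* (0.202) and *Mthfd2* (0.262) lay closest to the median and *Bcat1* (1.85) farthest. The other 8 nearest genes were *Rps6ka1* (0.453), the seryl-tRNA synthetase *Sars* (0.454), *Rps2-ps6* (0.467), the polyamine oxidase *Paox* (0.469), *Emb* (0.476), the glycyl-tRNA synthetase *Gars* (0.499), *Gm11476* (0.501) and *Jag2* (0.502). Among these, *Rps2-ps6*, *Emb*, *Gm11476* and *Jag2* were below 1 CPM in wildtype. *Sars* was lower in *Ep400* ko by a log2-fold change of -1.20 ± 0.173 (edgeR adjusted p = 0.0057), *Gars* by -1.24 ± 0.249 (0.016) and *Paox* by -1.97 ± 0.201 (0.00213). The likeness is a description over libraries that also defined the median.

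**Figure D5:**
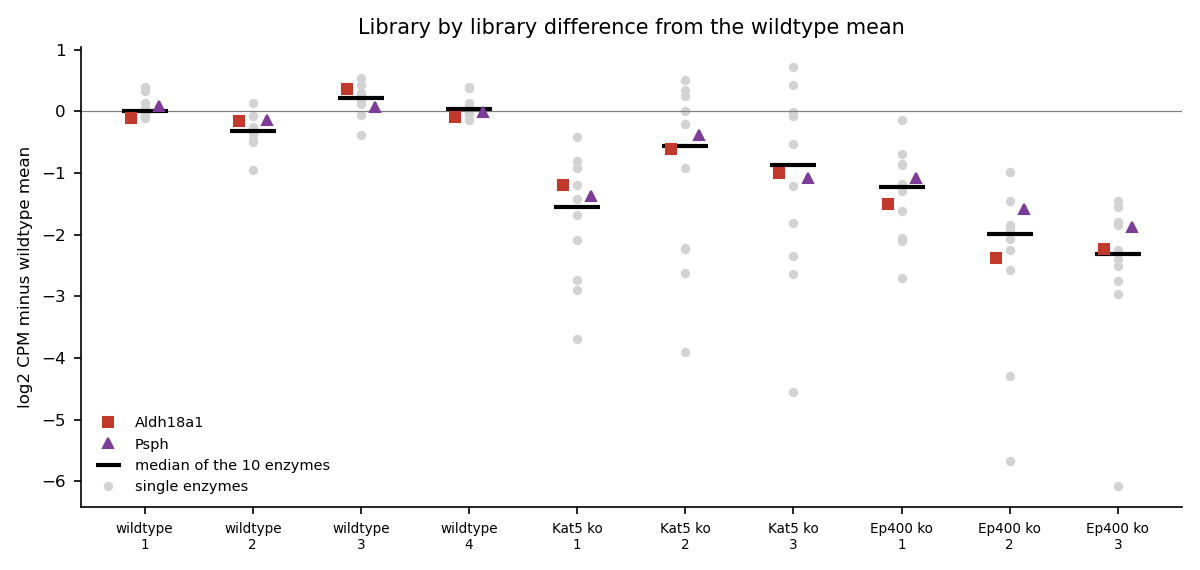
Difference of log2 CPM from the wildtype mean (vertical axis) in each library for the 10 enzymes (grey), their median (black bar) and the 2 nearest other genes, Aldh18a1 (red squares) and Psph (purple triangles). The median of the enzymes is -1.55 in Kat5 ko clone 1 and -2.32 in Ep400 ko clone 3. In Kat5 ko the single enzymes spread widely around it.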

How the data were processed

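The table of raw counts per gene was deposited by the authors for all 10 libraries. Per the labels, stranded poly-A RNA-seq reads were processed with bcl2fastq 2.20 and STAR 2.7.3 on mm10, and DESeq2 1.36.0 and R 4.2.1 are named as well, while the counting program and annotation are not given in the sources used here. The deposited normalized counts were not used. Members and gene lists were chosen with earlier results of these data known. Lists were read by the table's symbols, with *Pc* and *Pycr3* as *Pcx* and *Pycrl*.

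Each comparison was fitted by itself with edgeR 4.0.16 (R 4.3.3) on genes kept by filterByExpr, with TMM factors, the quasi-likelihood test and Benjamini-Hochberg adjustment over all genes tested, called at an adjusted p of 0.05. The SE is the log2-fold change divided by the root of its F statistic. CPM used the TMM factors, log2 CPM a prior count of 2, and RPKM the merged exon length of GENCODE M21, so levels between genes were compared only per length. The fits were tested on simulated data. Named were the 10 enzymes, their paralogs, *Kat5*, *Ep400* and *Atf4*, at most 8 enzymes and 8 regulators past the threshold per comparison by size, and the 10 nearest genes. DESeq2 1.42.0, other scaling, no filter, 1 fit of all libraries, a replicate block and leaving out each library were tried. Depths give counting precision only, and p-values measure the spread between wildtype samples and between clones.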

Additional observations from a re-analysis of the deposited data

Results flagged for a closer look

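In 6 of 43 genes checked, a single wildtype library stood apart from the other 3 by the ratio of its gap to the whole range (above Dixon's limit for 4 values, which chance passes in about 1 gene in 20). The ratio was 0.837 for *Phgdh* (replicate 2 at 498 CPM against 436 to 447) and 0.838 for *Bcat1* (replicate 3 at 129 CPM against 108 to 112). It was 0.880 for *Aldh18a1* (replicate 3 at 272 CPM against 188 to 198), 0.991 for *Ggh* (replicate 2 at 3.9 CPM against 2.65 to 2.66) and 0.855 for *Nupr1* (replicate 3 at 60.4 CPM against 26.3 to 31.2). For *Pck1* it was 1.0, resting on 1 count in replicate 3.

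By the edgeR quasi-likelihood test of *Ep400* ko against *Kat5* ko, 14 of the named genes passed the threshold, the nearest genes not counted. Over all 13587 genes 7.32% did. The other enzymes and the regulators were named for passing in a comparison, this one included, so nothing is read from the count. The 994 genes that passed in all became 4 to 2537 when a clone was left out. Lower in *Ep400* ko were *Bcat1* with a log2-fold change of -4.29, *Gart* with -2.31, *Ep400* with -1.65, *Enoph1* with -1.57, *Fpgs* with -1.39 and *Gcat* with -1.07. Higher were *Aldh1l1* with 4.97, *Srr* with 1.87, *Csad* with 1.84, *Kat5* with 1.74, *Pcx* with 1.62, *Cebpb* with 1.46, *Atf5* with 1.41 and *Nfe2l2* with 1.03. *Kat5* and *Ep400* are the targeted genes.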

How the results depend on the processing

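In *Kat5* ko the 67 genes past the threshold became 1382 with DESeq2, 245 without a filter, 26 with 1 fit of all libraries and 1 to 2651 when a library was left out, the extremes being without wildtype replicate 1 and without *Kat5* ko clone 1. The 5 enzymes past it became 3 with 1 fit of all libraries and 0 to 6 without a library, and the 0 other enzymes became 16 with DESeq2, 1 with relative log expression factors, 5 without a filter and 0 to 27 without a library. In *Ep400* ko 1917 genes became 3177 with DESeq2, 1273 with 1 fit and 826 to 2016 without a library, the 9 enzymes 5 to 10 and the 16 other enzymes 10 to 21. Between the knockouts 994 genes became 3021 with DESeq2, 1803 without a filter, 3539 with 1 fit and 4 to 2537 without a library. The 1 enzyme became 4 with DESeq2, 2 without a filter, 4 with 1 fit and 0 to 2, and the 8 other enzymes 27, 20, 33 and 0 to 27. With library size alone the median of the other enzymes was 0.051 in place of -0.0865 and 247 genes were lower in place of 404. The members' medians kept their sign throughout.

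Replicate numbers of the groups did not pair the libraries (correlations of same-numbered deviations -0.103 to 0.224). With the replicate block, the calls in *Kat5* ko, *Ep400* ko and between knockouts were 0, 170 and 213 genes, 0, 3 and 0 of the 10 enzymes, and 0, 3 and 2 other enzymes. Signs turned, in values past no threshold, for *Pck2* between the knockouts (-0.0292 without *Kat5* ko clone 2, -0.122 without *Ep400* ko clone 1, up to 0.311 without another clone), *Aldh1l2* (-0.232 without *Ep400* ko clone 1, up to 0.993) and *Gpt* in *Kat5* ko (0.0488 without wildtype replicate 3, down to -0.265). In *Kat5* ko they also turned for *Bcat1* (-0.0271) and *Phgdh* (-0.013) without *Kat5* ko clone 3 and for *Shmt2* (0.0648) without clone 1. The cause of these shifts was not tested.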
